A study of Homo sapiens with 24 samples.

Results

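The genes described here are 5 metallothioneins (MT2A, MT1E, MT1F, MT1G and MT1X), the zinc exporter gene SLC30A1 and the zinc-sensing transcription factor gene MTF1. They were selected by name, and the set was chosen on a measured value: MT2A had been seen to differ between control sgRNAs and between targeted elements in these same libraries. Of the 7 genes listed, 6 were matched to a row among the 21925 genes of the count table, and SLC30A1 was not analysed here. Of those 6, MT2A, MT1X, MT1G and MTF1 had enough counts to be among the 13147 genes tested. MT1E and MT1F did not pass the count filter.

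Metallothioneins are small, cysteine-rich proteins that bind zinc and copper and buffer the free metal in the cell. MTF1 senses zinc through its zinc fingers and activates the metallothionein genes and SLC30A1 by binding metal response elements in their promoters. Metallothionein transcripts are a standard readout of the zinc available to a cell, and MT2A is also a known target of the glucocorticoid receptor.

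The libraries came from K562, an erythroleukaemia cell line, carrying a dead Cas9 fused to the KRAB repressor domain under a doxycycline-inducible promoter, and this construct was present in the control cells as well. Cells received a single sgRNA, and doxycycline was given for 24 hours before polyA RNA was sequenced. GATA1TSS-Guide1 and GATA1TSS-Guide2 target the start of GATA1, the master erythroid transcription factor gene. eHDAC6-Guide1 and eHDAC6-Guide2 target eHDAC6, a putative GATA1 enhancer, and the 4 non-targeting control sgRNAs are called NC-Guide1 to NC-Guide4. Each of the 8 sgRNAs had 3 libraries, 24 in all, which the design text calls biological replicates. How far the 3 were separate cultures or transductions was not stated, so p-values measure the spread between these libraries.

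Levels are given as CPM, the count scaled to a common library total after edgeR's TMM normalization. Library totals ran from 4290343 to 23205811 counts with a median of 13479250, and the smallest was GATA1TSS-Guide2 replicate 2. GATA1 averaged 363 CPM over the 12 control libraries, 253 over the 6 eHDAC6 libraries and 84.8 over the 6 GATA1TSS libraries. Principal component 1 of the control libraries, computed without any metallothionein gene or MTF1, set 4 of them apart: NC-Guide3 replicates 2 and 3, and NC-Guide4 replicates 2 and 3. These 4 had scores of -28.7 to -17.2, and the other 8 had scores of 7.13 to 13.5. The erythroid markers HBG1, HBG2, HBE1, HBZ, KLF1, TAL1 and LMO2 were detected in every library and summed to 6136 to 13807 CPM. All 7 fell with both elements against all 12 controls, but against the 4 control libraries 1 (KLF1) fell with GATA1TSS and none with eHDAC6 (edgeR, adjusted p under 0.05). Of all genes tested, 27.2% were called with GATA1TSS and 31.1% with eHDAC6 against all 12 controls. Against the 4 those shares were 10.1% and 1.48%, so the loss of calls was not particular to these markers. Of the markers of other cell types, MS4A1, CD14, MPO, KRT5 and COL1A2 had no count in 12 to 19 of the 24 libraries, whereas LYZ (79.8 CPM), EPCAM (61.4 CPM) and CD3D (25.1 CPM) were present in all of them. In bulk RNA, fewer cells expressing a gene and less RNA per cell cannot be told apart. The part of these marker differences in the results below was not tested.

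The 2 metallothionein promoters of the set that are in the RefSeq table (GRCh38.p14) are shown because they hold matches to the core sequence that MTF1 is known to bind. Each line gives the 250 bases before the annotated transcript start on the plus strand, MT2A at chr16:56608334-56608583 and MT1X at chr16:56682220-56682469. Capitals mark matches, on either strand, to the metal response element core, searched as TGCACNC or TGCGCNC.
MT2A promoter: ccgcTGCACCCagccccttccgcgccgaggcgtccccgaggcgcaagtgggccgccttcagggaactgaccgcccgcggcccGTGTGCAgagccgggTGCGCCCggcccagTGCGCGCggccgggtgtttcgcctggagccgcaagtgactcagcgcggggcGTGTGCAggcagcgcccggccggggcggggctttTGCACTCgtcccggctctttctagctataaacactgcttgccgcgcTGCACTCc
MT1X promoter: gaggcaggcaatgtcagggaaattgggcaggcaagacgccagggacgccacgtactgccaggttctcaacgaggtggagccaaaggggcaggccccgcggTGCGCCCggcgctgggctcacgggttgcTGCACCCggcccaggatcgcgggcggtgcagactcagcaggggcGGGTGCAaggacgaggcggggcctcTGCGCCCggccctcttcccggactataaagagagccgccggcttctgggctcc

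MT2A held 7 core matches and MT1X held 4, and the map of core matches shows that the closest of them began 8 bases before the start in MT2A and 53 bases before it in MT1X. SLC30A1 held 1 match and MTF1 held 0 in windows of the same length. Among 35114 RefSeq promoters, 24.8% held at least 1 core and 0.37% held at least 4. The GATA core, searched as AGATAA or TGATAA on both strands, was found in 14.6% of those promoters and in none of these 4. A match describes letters and is not evidence of a bound site. Promoters of MT1E, MT1F and MT1G were not used here.

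**Figure D1:**
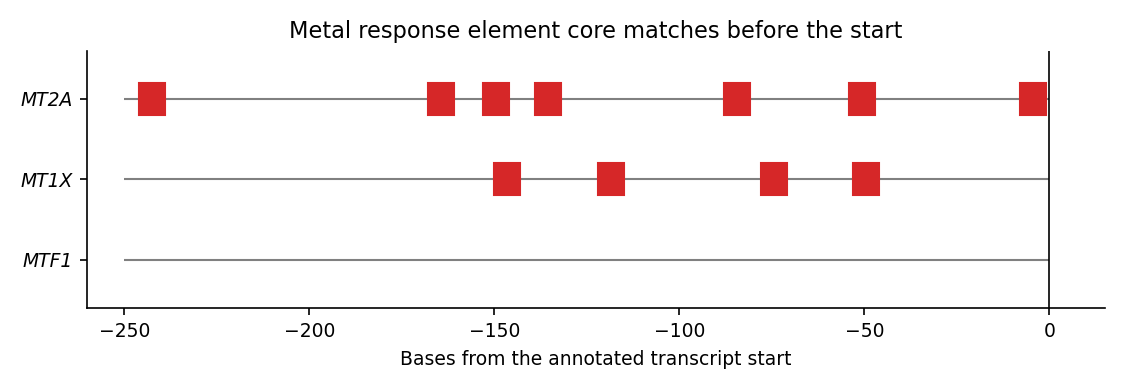
Positions of metal response element core matches (red blocks, 7 bases wide) in the 250 bases before the annotated transcript start of MT2A, MT1X and MTF1; the x axis is distance from the start in bases. MT2A has 7 blocks, MT1X has 4 and MTF1 has none.

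The coding sequences of the most abundant pair are shown because the metallothioneins differ by so few bases that reads can be assigned to the wrong copy. Both come from GENCODE 29 on GRCh38, 5' to 3' from the start codon to the stop codon, and capitals in MT1X mark bases that differ from MT2A at the same position.
MT2A coding sequence: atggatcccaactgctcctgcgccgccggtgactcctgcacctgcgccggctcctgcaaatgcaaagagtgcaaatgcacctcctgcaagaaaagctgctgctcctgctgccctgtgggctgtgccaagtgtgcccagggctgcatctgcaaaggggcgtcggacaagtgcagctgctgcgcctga
MT1X coding sequence: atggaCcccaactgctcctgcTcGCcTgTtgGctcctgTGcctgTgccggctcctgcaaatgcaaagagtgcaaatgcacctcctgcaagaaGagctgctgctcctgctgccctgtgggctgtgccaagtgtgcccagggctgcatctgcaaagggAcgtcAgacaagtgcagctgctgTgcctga

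The 2 sequences were both 186 bases long, identical at 172 bases (92.5%), with a longest shared run of 63 bases. Over all pairs of the 5 metallothioneins the identity ran from 88.7% for MT1F and MT1X to 93.7% for MT2A and MT1G. MT1G and MT1X shared an unbroken run of 96 bases. Each of the 5 encoded 20 cysteines, in 61 codons before the stop or, in MT1G, 62. No source used here says how reads matching several copies were counted, and the values of single metallothioneins are therefore uncertain. The summed level is given beside them.

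On hg19, the build of the deposited gene models, MT2A lies at chr16:56642478-56643409, MT1E at chr16:56659585-56661024, MT1F at chr16:56691855-56693215 and MT1X at chr16:56716382-56718108, all on the plus strand. MT1G lies between MT1F and MT1X at chr16:56700647-56701977 on the minus strand. Each has 3 exons and no model of another gene overlaps it. MTF1 lies on the minus strand at chr1:38275239-38325292 with 11 exons.

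MT2A was the most abundant of these genes per length. Over all 24 libraries it averaged 39.8 CPM per kilobase of exon, followed by MT1X at 17.4, MT1G at 2.90 and MTF1 at 2.39 CPM per kilobase. MT1E and MT1F were close to the limit of detection, at 0.541 and 0.423 CPM per kilobase. MT1E had 81 counts in all 24 libraries together, 0 to 10 per library, and MT1F had 70, 0 to 9 per library. MT1F had no count in 6 libraries and MT1E in 2. A library with 0 counts allows a level of up to 3 counts, which is 0.125 CPM in the deepest library and 0.682 CPM in the smallest, for counting error only. Of the 10 other metallothionein genes in the table, MT1A was the most abundant with 179 counts in all (1.26 CPM per kilobase), and MT1DP had none.

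**Figure D2:**
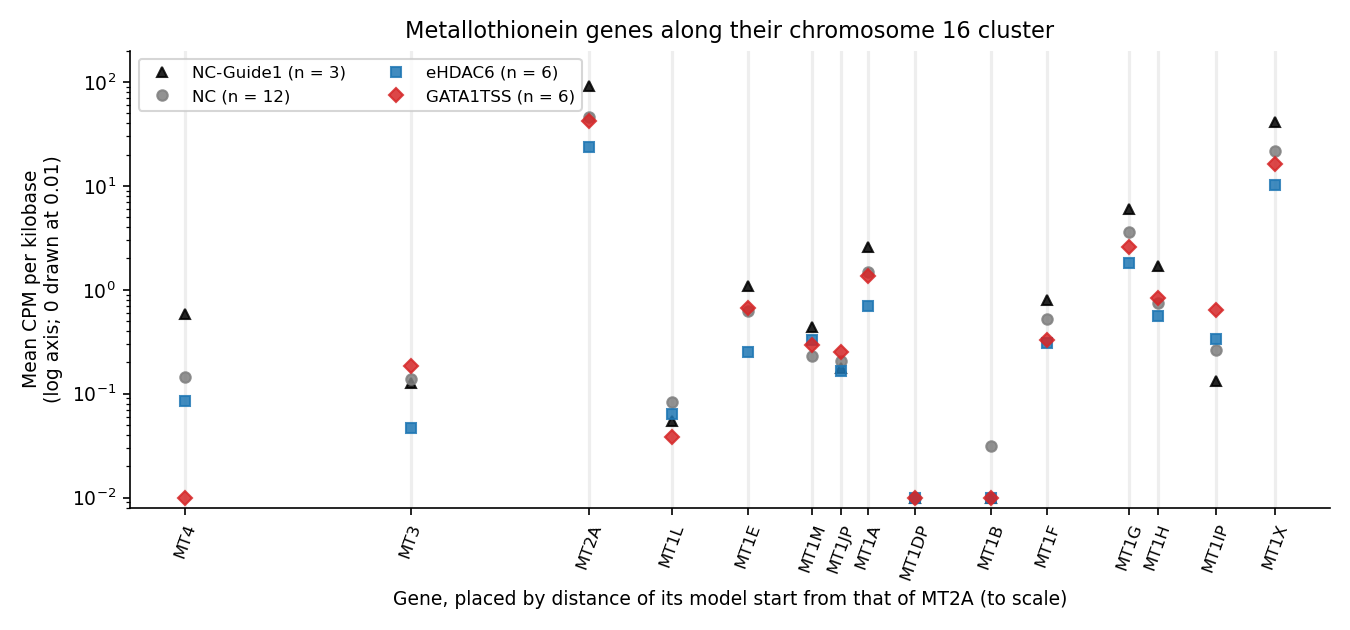
Mean level per kilobase of exon (log axis, CPM per kilobase, 0 drawn at 0.01) of 15 metallothionein genes and pseudogenes, placed along the x axis by distance from MT2A; black triangles are NC-Guide1 (n = 3), grey circles all NC (n = 12), blue squares eHDAC6 (n = 6) and red diamonds GATA1TSS (n = 6). MT2A and MT1X are the 2 highest genes, and NC-Guide1 is the highest of the 4 symbols at MT2A, MT1X and MT1G; genes under 1 CPM per kilobase rest on few counts.

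MT2A was high with 1 control sgRNA and lowest on average with the enhancer sgRNAs. With NC-Guide1 the 3 libraries had 35.0, 41.3 and 37.5 CPM. NC-Guide2 gave 10.0, 13.5 and 19.3 CPM, NC-Guide3 18.0, 12.2 and 6.0 CPM, and NC-Guide4 12.9, 12 and 16.3 CPM. All 3 NC-Guide1 libraries were above the other 21, while the 9 libraries of the other control sgRNAs overlapped one another. eHDAC6-Guide1 gave 9.89, 11.4 and 11.7 CPM, and eHDAC6-Guide2 gave 8.92, 8.87 and 8.92 CPM. GATA1TSS-Guide1 gave 14.6, 19.4 and 23.7 CPM, and GATA1TSS-Guide2 gave 17, 13.9 and 17.9 CPM. Every eHDAC6 library was below every GATA1TSS library, and both sets lay within the range of the 12 control libraries.

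Ordered by mean MT2A level, the sgRNAs ran from NC-Guide1 (37.9 ± 3.16 CPM, SD, n = 3) through GATA1TSS-Guide1 (19.2 ± 4.55), GATA1TSS-Guide2 (16.2 ± 2.1), NC-Guide2 (14.3 ± 4.71), NC-Guide4 (13.7 ± 2.24), NC-Guide3 (12.1 ± 5.98) and eHDAC6-Guide1 (11 ± 0.969) to eHDAC6-Guide2 (8.90 ± 0.0300). Of the 7 neighbouring pairs in that order, NC-Guide1 and GATA1TSS-Guide1 did not overlap, and neither did the 2 eHDAC6 sgRNAs. Libraries overlapped in the other 5 pairs. By element, MT2A averaged 19.5 ± 11.7 CPM in the controls (n = 12), 17.7 ± 3.57 with GATA1TSS (n = 6) and 9.95 ± 1.30 with eHDAC6 (n = 6).

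MT1X, the second most abundant metallothionein, had the same leading sgRNA. Its NC-Guide1 libraries had 19.2, 15.6 and 15 CPM, above all 21 others. NC-Guide2 gave 5.36, 7.28 and 9.25 CPM, NC-Guide3 7.56, 5.13 and 2.07 CPM, and NC-Guide4 3.90, 6.99 and 8.10 CPM. The eHDAC6 libraries had 3.70, 6.12 and 4.40 CPM with eHDAC6-Guide1 and 4.76, 3.62 and 1.89 CPM with eHDAC6-Guide2. The GATA1TSS libraries had 3.83, 8.30 and 7.86 CPM with GATA1TSS-Guide1 and 8.26, 3.64 and 7.36 CPM with GATA1TSS-Guide2. Outside NC-Guide1, libraries of the 3 elements overlapped.

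MT1G rested on far fewer counts, 3 to 36 per library. The NC-Guide1 libraries had 2.58, 2.04 and 2.66 CPM, and again no other library reached them. The remaining control libraries ran from 0.444 to 1.84 CPM, the eHDAC6 libraries from 0.430 to 0.975 CPM and the GATA1TSS libraries from 0.682 to 1.5 CPM. MT1X and MT1G thus shared the high position of NC-Guide1 with MT2A; of the 13147 genes tested, 285 (2.17%) had all 3 NC-Guide1 libraries above every other library, and since MT2A was listed for differing between control sgRNAs nothing is read from its place among them.

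MTF1, whose product activates these genes, was level by comparison. Its 24 libraries ran from 14.6 to 22.8 CPM, with means of 18.5 ± 1.74 CPM in the controls (n = 12), 20.1 ± 1.15 with eHDAC6 (n = 6) and 19.1 ± 2.56 with GATA1TSS (n = 6). NC-Guide1, where the metallothioneins were highest, had 20.1, 17.5 and 20.1 CPM of MTF1, inside the range of the other controls. These values are of the transcript and hold nothing on the zinc-dependent activity of the protein.

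**Figure D3:**
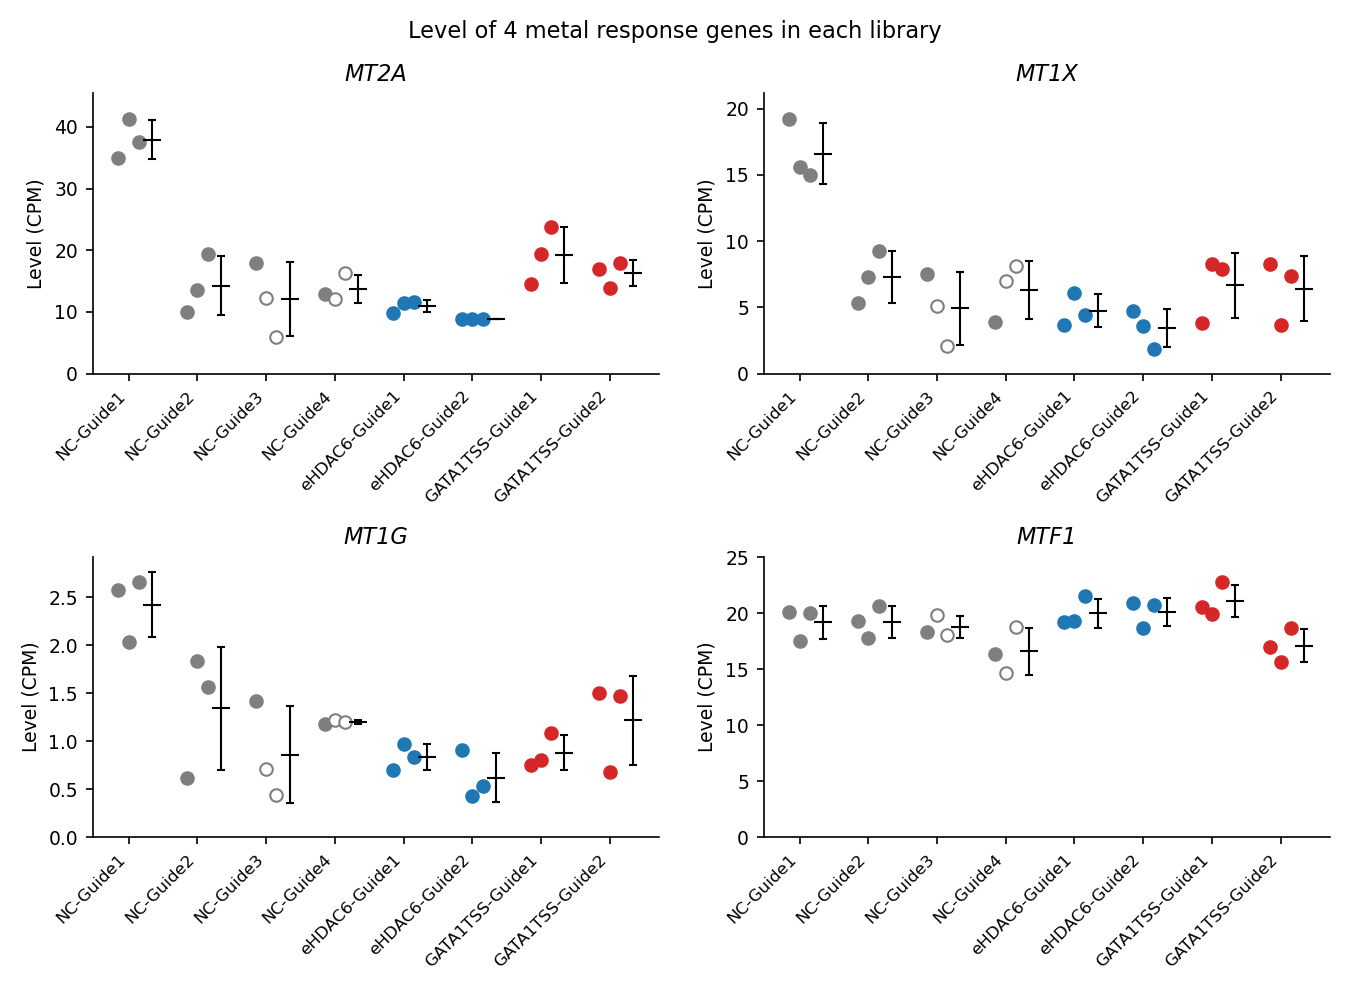
Level in CPM (linear axes from 0) of MT2A, MT1X, MT1G and MTF1 in each of the 24 libraries, by sgRNA (grey NC, blue eHDAC6, red GATA1TSS; open grey circles are the 4 control libraries that stood apart); the bar beside each group is its mean ± SD (n = 3). The 3 NC-Guide1 libraries lie above all others in MT2A (35.0 to 41.3 CPM), MT1X and MT1G but not in MTF1.

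The summed level of the 5 metallothioneins does not depend on how reads were divided among them. It can still depend on whether shared reads were dropped, counted repeatedly or given to other copies. The sum followed MT2A, which made up most of it. It was 57.9 ± 1.67 CPM with NC-Guide1 and 18.2 to 23.5 CPM on average with the other control sgRNAs (n = 3 each). The sum averaged 16.9 ± 2.14 CPM with eHDAC6-Guide1, 13.2 ± 1.68 with eHDAC6-Guide2, 27.1 ± 6.82 with GATA1TSS-Guide1 and 24.6 ± 4.57 with GATA1TSS-Guide2. MT2A made up 66.1 ± 5.27% of the sum over the 24 libraries (57.7% to 78.1%) and MT1X 27.2 ± 4.74% (16.6% to 33.9%). The count of MT2A was 1.72 to 4.72 times that of MT1X, with a median of 2.40. The highest library was 6.93 times the lowest for the sum and 1.35 times the lowest for MT2A's share of it.

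Across libraries MT2A, MT1X and MT1G varied together, and MTF1 varied less with them. On log2 CPM over 24 libraries, Pearson's r of MT2A with MT1X was 0.89 (Spearman's rho 0.86), and it was 0.80 (rho 0.80) in the 21 libraries without NC-Guide1. It was 0.95 within the 12 control libraries, 0.76 within the 12 targeted libraries and 0.76 over deviations from each sgRNA's mean. MT2A with MT1G gave r = 0.83 and MT2A with MTF1 gave r = 0.09, or 0.37 over deviations from each sgRNA's mean. These coefficients describe libraries that share scaling, depth and sgRNA, and near-identical copies that can share reads, so they carry no test.

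**Figure D4:**
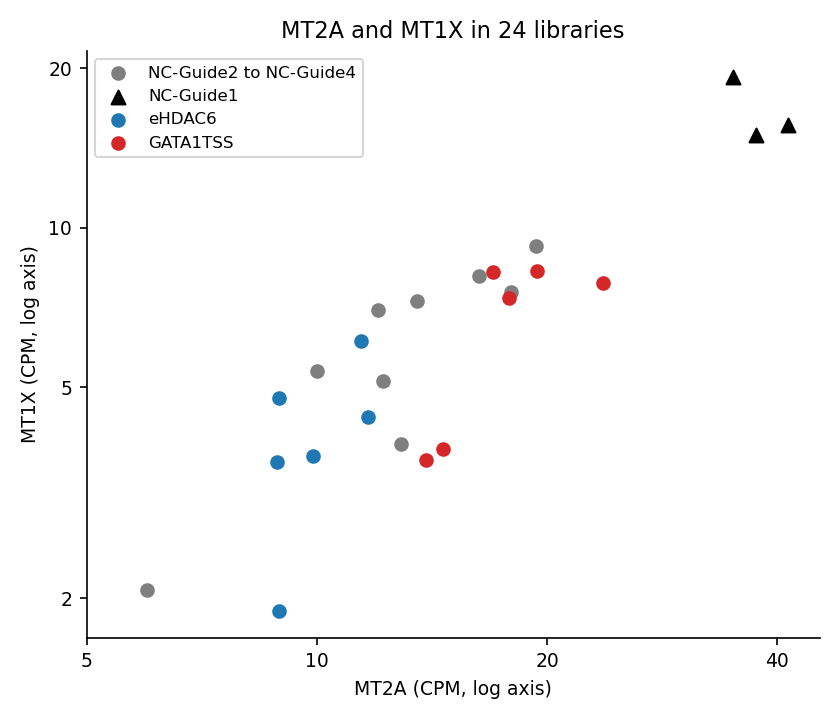
MT2A against MT1X in each of the 24 libraries (CPM, both axes log); black triangles are NC-Guide1, grey circles the other control sgRNAs, blue eHDAC6 and red GATA1TSS. NC-Guide1 lies apart at the top right (MT2A 35.0 to 41.3 CPM), and the 6 eHDAC6 libraries lie at 8.87 to 11.7 CPM of MT2A.

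The genes whose pattern was most like that of MT2A were sought among the 9957 other genes averaging 5 CPM or more, by Pearson's r of log2 CPM over the 24 libraries. The 5 highest were TXNIP (r = 0.84), NBPF10 (0.83), NBPF20 (0.81), SIK2 (0.81) and NCOA2 (0.79). TXNIP, the thioredoxin-interacting protein gene, had 962 ± 11.7 CPM with NC-Guide1, 502 ± 42.6 with eHDAC6 (n = 6) and 583 ± 39.8 with GATA1TSS (n = 6). Its r with MT2A was 0.67 without NC-Guide1. TXNIP also split the control libraries, with 823 CPM on average in the 8 and 485 in the 4 that stood apart. The NBPF genes are a multicopy family, so their counts are uncertain. The 3 lowest were KNOP1 (r = -0.80), SLC39A6 (-0.77) and THUMPD2 (-0.77). SLC39A6, a zinc importer gene, had 20.1 ± 0.984 CPM with NC-Guide1 and 22.8 to 26.3 CPM on average with the other 7 sgRNAs.

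The 4 control sgRNAs carry the same label, non-targeting, and their differences set the scale for the element comparisons. The fitted means of the 4 spanned 1.65 for MT2A on the log2 scale, which is given with no test because MT2A was listed for this difference. The span was 1.72 for MT1X (edgeR quasi-likelihood test over 3 contrasts, adjusted p = 0.0119) and 1.45 for MT1G (adjusted p = 0.0499), against 0.21 for MTF1 (adjusted p = 0.399). Of all genes tested, 12.3% passed that test. The MT1G call was close to the threshold and did not hold in several settings, among them without a count filter (adjusted p = 0.0561) or when any of 9 of the 12 control libraries was left out (adjusted p up to 0.165). It held without NC-Guide2 replicate 2, NC-Guide3 replicate 1 or NC-Guide4 replicate 1. MT1X and MT1G move with MT2A and were named with its values known, so their calls are not independent support for its pattern.

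With eHDAC6 repressed, the 3 tested metallothioneins of the set were lower on average than in the controls. MT2A was lower by 0.81 (SE 0.16) on the log2 scale, given with no test. MT1X fell by 0.97 (SE 0.24, edgeR adjusted p = 0.00307) and MT1G fell by 0.91 (SE 0.27, adjusted p = 0.0112). For each, 6 of 6 libraries were below the control mean, which includes the high NC-Guide1 libraries. That mean was 8.79 CPM for MT1X and 1.46 for MT1G, above the control medians of 7.42 and 1.32 CPM. The eHDAC6 and control libraries overlapped for both genes. MTF1 differed by 0.13 (SE 0.07, adjusted p = 0.173). By sgRNA, MT1X fell by 1.2 (edgeR adjusted p = 0.0111) and MT1G fell by 1.11 (adjusted p = 0.0326) with eHDAC6-Guide2, where 19.2% of all genes were called. Neither call held against the 4 control libraries or without eHDAC6-Guide2 replicate 3, and the MT1G call was also lost without eHDAC6-Guide2 replicate 2 or NC-Guide3 replicate 1 (adjusted p up to 0.120 for MT1X and 0.156 for MT1G with 1 library left out). With eHDAC6-Guide1 MT1X differed by -0.75 (adjusted p = 0.0905) and MT1G by -0.72 (adjusted p = 0.145), where 16.7% were called. In this comparison 31.1% of all genes were called, 15.3% lower and 15.8% higher, and nothing is read from these shares because the genes were listed for it.

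The size of that difference, and both calls, depended on which control libraries were used. Without NC-Guide1, the log2 difference was -0.44 for MT2A, -0.62 for MT1X (edgeR adjusted p = 0.0828) and -0.64 for MT1G (adjusted p = 0.108). Against the 4 control libraries alone it was -0.20 for MT2A, -0.39 for MT1X (adjusted p = 0.536) and -0.22 for MT1G (adjusted p = 0.815), and 1.48% of all genes were called. Against the other 8 it was -0.93, -0.95 (adjusted p = 0.00143) and -1.08 (adjusted p = 0.00456). The 4 libraries averaged 11.6 ± 4.24 CPM of MT2A and the 8 averaged 23.4 ± 12.5, a set that holds all 3 NC-Guide1 libraries. The MT1X and MT1G calls were also lost without eHDAC6-Guide2 (adjusted p = 0.0923 and 0.155) and with the counts of each sgRNA added up, leaving the spread between sgRNAs as the error (adjusted p = 0.119 and 0.165).

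With the GATA1 start site repressed, neither MT1X nor MT1G passed the test against all 12 controls, and MT2A is given with no test. MT2A differed by 0.04 (SE 0.15) on the log2 scale, MT1X by -0.21 (SE 0.22, edgeR adjusted p = 0.517), MT1G by -0.32 (SE 0.24, adjusted p = 0.343) and MTF1 by 0.06 (SE 0.07, adjusted p = 0.606). With the single sgRNAs against NC, MT1X differed by -0.24 (GATA1TSS-Guide1, adjusted p = 0.619, 12% of all genes called) and -0.18 (GATA1TSS-Guide2, adjusted p = 0.701, 24.8% called). Of all genes, 27.2% were called in this comparison, 13.5% higher and 13.7% lower. It shares its control libraries with that of eHDAC6. The direction depended on the controls used. Against the 4 control libraries the differences were 0.65 for MT2A, 0.38 for MT1X (adjusted p = 0.403) and 0.38 for MT1G (adjusted p = 0.516), and without NC-Guide1 they were 0.41, 0.14 and -0.05.

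**Figure D5:**
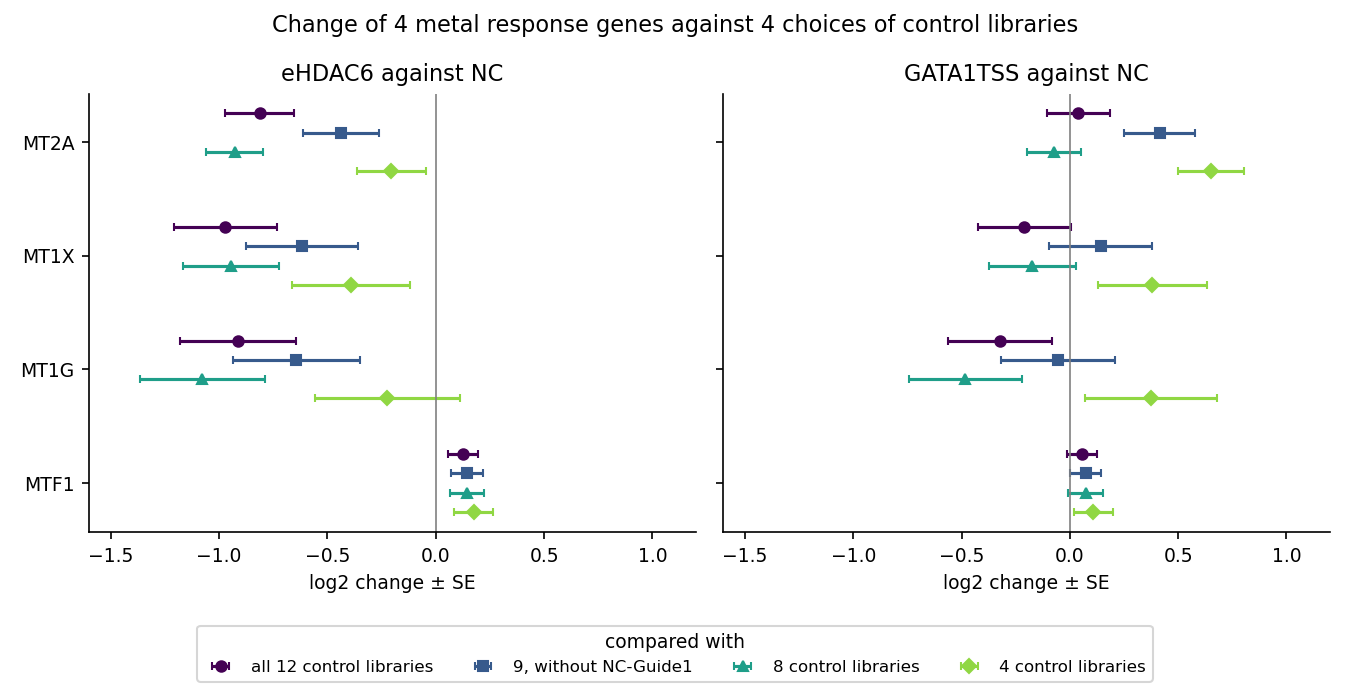
Log2 change (± SE) of MT2A, MT1X, MT1G and MTF1 with eHDAC6 (left) and GATA1TSS (right) against 4 choices of control libraries: all 12, the 9 without NC-Guide1, the 8 that did not stand apart and the 4 that did. With eHDAC6, MT2A moves from -0.81 against all 12 to -0.20 against the 4, and with GATA1TSS from 0.04 to 0.65.

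Setting the elements against each other needs no control library. MT2A was lower by 0.85 (SE 0.18) on the log2 scale with eHDAC6 than with GATA1TSS, and the libraries did not overlap, with at most 11.7 CPM against at least 13.9 CPM. That difference is part of the reason the gene was listed and has no test. Of all genes, 0.639% had every eHDAC6 library below every GATA1TSS library. Nothing is read from MT2A's place among them, because it was listed for differing between elements. MT1X differed by -0.76 (SE 0.26, edgeR adjusted p = 0.15), MT1G by -0.59 (SE 0.30, adjusted p = 0.357) and MTF1 by 0.07 (SE 0.08, adjusted p = 0.719), where 1.53% of all genes were called. All 6 eHDAC6 libraries were below the GATA1TSS mean for MT1X and MT1G, but for both genes the libraries overlapped. Without a count filter MT1X was called lower (log2 difference -0.77, edgeR adjusted p = 0.0484), in a setting that called 306 genes against 201 with the filter. MT1X was not called with any single library left out (edgeR adjusted p = 0.0768 to 0.329). Nor was it called with counts added up per sgRNA, where 0 genes were.

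The summed metallothionein level is given beside that of GATA1 for each targeting sgRNA, and nothing is read from the order because most of the sum is MT2A. GATA1TSS-Guide2, with 53.1 ± 9.66 CPM of GATA1, and GATA1TSS-Guide1, with 117 ± 18.0, had sums of 24.6 and 27.1 CPM, and eHDAC6-Guide1 and eHDAC6-Guide2, with 247 ± 5.29 and 260 ± 6.16 CPM of GATA1, had sums of 16.9 and 13.2 CPM.

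Within each element the sgRNAs were compared on all 4 tested genes, a comparison that did not enter the choice of genes. GATA1TSS-Guide2 differed from GATA1TSS-Guide1 by -0.21 for MT2A (SE 0.24, edgeR adjusted p = 0.685), 0.06 for MT1X (SE 0.35, adjusted p = 0.948) and 0.61 for MT1G (SE 0.38, adjusted p = 0.425). MTF1 was lower by 0.28 (SE 0.11, adjusted p = 0.170), with 17, 15.7 and 18.7 CPM against 20.6, 20 and 22.8 CPM. Those libraries did not overlap, as in 12.9% of all genes in that direction, and 3.48% of genes were called. eHDAC6-Guide2 differed from eHDAC6-Guide1 by -0.30 for MT2A (SE 0.26), -0.45 for MT1X (SE 0.40), -0.39 for MT1G (SE 0.46) and 0.01 for MTF1 (SE 0.11), with an edgeR adjusted p of 1.0 for each. Here 2 of all genes (0.0152%) were called and 6.25% had every eHDAC6-Guide2 library below every eHDAC6-Guide1 library, MT2A among them. None of the 4 genes was called within either element, also with single libraries left out, and several differences moved with 1 library. Between the GATA1TSS sgRNAs MT2A ran from -0.38 (without GATA1TSS-Guide1 replicate 1) to -0.036 (without GATA1TSS-Guide1 replicate 3), and MT1X from -0.22 (without GATA1TSS-Guide1 replicate 1) to 0.25 (without GATA1TSS-Guide1 replicate 2). Between the eHDAC6 sgRNAs MT1X ran from -0.78 (without eHDAC6-Guide2 replicate 1) to -0.16 (without eHDAC6-Guide2 replicate 3), and MT1G from -0.77 (without eHDAC6-Guide2 replicate 1) to -0.20 (without eHDAC6-Guide2 replicate 2).

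The 2 tested genes next to the metallothionein cluster were not called with either element. Of all genes, 27.2% were called with GATA1TSS and 31.1% with eHDAC6, so nothing is read from so few genes. BBS2, a component of the ciliary BBSome, and NUP93, a nucleoporin, are the 2 tested genes that start within 100 kb of the cluster. They differed by 0.11 (SE 0.07) and 0.07 (SE 0.05) with eHDAC6 and by -0.05 (SE 0.07) and 0.06 (SE 0.05) with GATA1TSS, with edgeR adjusted p from 0.252 to 0.668. MT1A, the one other metallothionein tested, was lower by 1.02 (SE 0.47, edgeR adjusted p = 0.0948) with eHDAC6 and by 0.02 (SE 0.40, adjusted p = 0.982) with GATA1TSS.

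Zinc transporter genes were called in both directions. Of 9 other SLC30 exporter genes listed, 7 were tested, and with each element SLC30A3 rose and SLC30A9 fell. That is 2 of 7, close to the share of all genes called (27.2% with GATA1TSS and 31.1% with eHDAC6), so nothing is read from the count. The GATA1TSS call of SLC30A9 was lost without NC-Guide1 replicate 2, GATA1TSS-Guide1 replicate 1 or GATA1TSS-Guide2 replicate 1 or 3 (edgeR adjusted p up to 0.0840). Against the 4 control libraries neither SLC30A9 call held (edgeR adjusted p = 0.798 with GATA1TSS and 0.257 with eHDAC6). Neither held with counts added up per sgRNA (edgeR adjusted p = 0.206 and 0.0944). SLC30A3 rose by 0.48 with GATA1TSS (edgeR adjusted p = 0.00146) and 0.55 with eHDAC6 (adjusted p = 0.000470), and neither call held against the 4 control libraries (adjusted p = 0.518 and 0.385) or with counts added up per sgRNA (adjusted p = 0.0711 and 0.0693). Of 14 SLC39 importer genes listed, 10 were tested, and 2 rose and 3 fell with each element, where 27.2% of all genes were called with GATA1TSS and 31.1% with eHDAC6. The median log2 difference of the 10 was -0.05 with GATA1TSS and 0.12 with eHDAC6, and that of all genes tested was 0.00 and -0.01.

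SLC39A14, an importer of zinc, iron and manganese, had the largest fall of the tested importers with each element. Its control libraries had 59.7 to 120 CPM with a median of 89.1, the eHDAC6 libraries 51.1 to 58.9 with a median of 54.2 and the GATA1TSS libraries 29.8 to 62.3 with a median of 42.6. Every eHDAC6 library was below every control library, as in 0.753% of all genes. In edgeR, SLC39A14 was called lower with eHDAC6, where it fell by 0.70 (SE 0.10, adjusted p = 1.48e-05), and with GATA1TSS, where it fell by 1.06 (SE 0.10, adjusted p = 3.37e-08). Against the 4 control libraries it still fell, by 0.36 (adjusted p = 0.00498) and by 0.72 (adjusted p = 3.02e-07). With the counts of each sgRNA added up, the GATA1TSS call of SLC39A14 held (-0.98, edgeR adjusted p = 0.0243) and that of eHDAC6 did not (-0.68, adjusted p = 0.0743). SLC39A3, a plasma membrane zinc importer, fell by 0.42 with eHDAC6 and 0.69 with GATA1TSS, and against the 4 control libraries the GATA1TSS call held (-0.42, edgeR adjusted p = 4.03e-05) and that of eHDAC6 did not (-0.16, adjusted p = 0.198). The same split was found for SLC39A3 with counts added up per sgRNA (edgeR adjusted p = 0.0181 and 0.0669). SLC39A8 fell by 0.42 and 0.40 and SLC39A1 rose by 0.25 and 0.26 with eHDAC6 and GATA1TSS, and none of these 4 calls held with counts added up per sgRNA or against the 4 control libraries, where SLC39A8 stood at -0.01 and 0.00. None of the tested transporters of either family was called between eHDAC6 and GATA1TSS, where 1.53% of all genes were called, so nothing is read from that.

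Copper genes were listed because metallothioneins also bind copper. Of 9 listed, 8 were tested, and with each element the same 4 were called: the copper transporter SLC31A2 and the superoxide dismutase copper chaperone CCS rose, and the importer SLC31A1 and the copper-exporting ATPase ATP7B fell. Of all genes, 27.2% were called with GATA1TSS and 31.1% with eHDAC6. SLC31A2 rose by 0.56 with eHDAC6 (edgeR adjusted p = 0.000763) and 0.47 with GATA1TSS (adjusted p = 0.00298). None of the 4 was called with either element against the 4 control libraries or with counts added up per sgRNA. Against those 4 libraries 10.1% of all genes were called with GATA1TSS and 1.48% with eHDAC6.

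Of 11 heavy metal and oxidative stress genes listed, 8 were tested. The heat shock gene HSPA1A rose by 0.22 with eHDAC6 (edgeR adjusted p = 0.0215) and 0.31 with GATA1TSS (adjusted p = 0.00181), and HSPA1A and its near-identical copy HSPA1B can share reads. HSPA1B and the co-chaperone gene BAG3 also rose with GATA1TSS, and GCLM, which encodes a subunit of the glutathione-synthesizing ligase, fell by 0.18 with eHDAC6 and by 0.15 with GATA1TSS. That makes 4 of 8 called with GATA1TSS, where 27.2% of all genes were called, and 2 of 8 with eHDAC6, where 31.1% were. The GATA1TSS calls of BAG3 (edgeR adjusted p = 0.0498) and GCLM (adjusted p = 0.0454) were close to the threshold. Leaving out 1 of 18 libraries lost the BAG3 call in 11 cases and the GCLM call in 10 (adjusted p up to 0.136 and 0.173). BAG3 remained called without NC-Guide1 replicate 1 or 3, NC-Guide2 replicate 1, NC-Guide3 replicate 3, NC-Guide4 replicate 2, GATA1TSS-Guide1 replicate 3 or GATA1TSS-Guide2 replicate 2. GCLM remained called without NC-Guide2 replicate 2, NC-Guide3 replicate 1 or 3, NC-Guide4 replicate 1 or 2, GATA1TSS-Guide1 replicate 2 or 3 or GATA1TSS-Guide2 replicate 2. With eHDAC6 the GCLM call was lost without NC-Guide1 replicate 2, eHDAC6-Guide1 replicate 3 or eHDAC6-Guide2 replicate 3 (edgeR adjusted p up to 0.0764), and that of HSPA1A without eHDAC6-Guide2 replicate 2 (adjusted p = 0.0534). None of these genes was called against the 4 control libraries, where HSPA1A with eHDAC6 stood at -0.08, or with counts added up per sgRNA. Against those 4 libraries 10.1% of all genes were called with GATA1TSS and 1.48% with eHDAC6.

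Glucocorticoid receptor targets were listed because MT2A is one of them. Of 8 listed, 6 were tested, 4 rose with GATA1TSS and 2 with eHDAC6, and none fell. Of all genes, 13.5% were called higher with GATA1TSS and 15.8% with eHDAC6. TSC22D3, which encodes the glucocorticoid-induced leucine zipper, rose by 0.78 with GATA1TSS (SE 0.11, edgeR adjusted p = 6.91e-06) and 0.53 with eHDAC6 (SE 0.11, adjusted p = 0.000976), from 9.68 CPM in the controls to 17.8 and 13.6 CPM. Against the 4 control libraries it was called again, at 0.96 and 0.72 (adjusted p = 0.000134 and 0.0123). With the counts of each sgRNA added up, TSC22D3 stood at 0.85 and 0.50 and was called with neither (edgeR adjusted p = 0.0998 and 0.303). The transcription factor gene CEBPD rose by 0.33 with GATA1TSS (adjusted p = 0.00292) and 0.40 against the 4 control libraries (adjusted p = 0.0128), and the circadian repressor gene PER1 rose by 0.45 with eHDAC6 (adjusted p = 0.000880), a call that did not hold against the 4 (0.10, adjusted p = 0.726). Neither the CEBPD nor the PER1 call held with counts added up per sgRNA (edgeR adjusted p = 0.164 and 0.123).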

How the data were processed

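PolyA RNA from 24 K562 libraries (8 sgRNAs, 3 each) was read from the authors' deposited table of raw counts per gene symbol. Per the submitters' processing notes, the build was hg19 and the tools included TopHat2 2.0.8, Bowtie2 2.1.0, SAMtools 0.1.19 and Picard, with no role or order named. The sources used here do not give the counting tool, the use of strand or the treatment of multiply mapped reads. The deposited gene models (hg19) gave positions and exon lengths. In the table, 21 entries named as dates held 0.198% of counts.

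Counts were scaled by TMM, filtered with filterByExpr (minimum count 10, total 15, proportion 0.7) and fitted in edgeR 4.0.16 (R 4.3.3, limma 3.58.1) with 1 coefficient per sgRNA over all 24 libraries. Quasi-likelihood tests were adjusted by Benjamini-Hochberg over 13147 genes, with 0.05 as the threshold, and element contrasts weighted sgRNAs equally. A standard error is the log2 change divided by the root of F. Log2 CPM used a prior count of 2. Named genes were the listed ones, at most 4 called genes per list with a mean of at least 1 CPM, and the 5 most and 3 least correlated with MT2A. SLC39A6 entered by correlation. Coding sequences were aligned with Biopython 1.88. DESeq2 1.42.0, RLE scaling, no filter, a replicate block, left-out libraries and sgRNAs, other control sets and sums per sgRNA were alternatives. The genes, lists and tests were chosen with earlier results of these data known. A marker of the fixed list is not reported here.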

Additional observations from a re-analysis of the deposited data

Results flagged for a closer look

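MT1E stood at 1.14 CPM in GATA1TSS-Guide2 replicate 2, far above the other 5 GATA1TSS libraries. That library is the smallest of the 24, and the value rests on 5 counts. It was the only one of 12 groups checked (6 genes in the eHDAC6 and GATA1TSS libraries) in which a single library lay that far from the rest. By chance about 1 in 20 groups of normally distributed values would pass that cut-off. With 12 groups checked, 1 such value is not unusual, and that rate need not hold for counts this low.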

How the results depend on the processing

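Of 812 alternative values of the 4 tested genes, 774 counted as unchanged, 25 lost a call, 4 gained one and 0 reversed a call. The other 9 were values of MT2A that moved by more than the spread between replicates. A gene called in neither setting counted as unchanged, so the 774 include values with no call to lose. Outside the comparisons within elements, MT2A was judged by that spread alone. The MT1X and MT1G calls of eHDAC6 against NC were lost with the 4 control libraries, without NC-Guide1 and with sums per sgRNA. Leaving out single libraries lost neither the MT1X call (-1.14 to -0.82) nor the MT1G call (-1.10 to -0.77) of eHDAC6 against NC. SLC39A8 with GATA1TSS stood at 0.0043 on the log2 scale (main value -0.40) and HSPA1A with eHDAC6 at -0.078 (main value 0.22) against the 4 control libraries. The cause was not tested in any of these cases.

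The number of genes called, which sets the background for the named genes, moved more. For GATA1TSS against NC (3580 genes) it was 1332 against the 4 control libraries, 1628 once GATA1TSS-Guide2 was dropped, 604 on sums per sgRNA and 2884 to 3975 with single libraries left out. For eHDAC6 against NC (4088) it was 195 against the 4, 2612 without NC-Guide2, 2236 without eHDAC6-Guide1, 2004 without eHDAC6-Guide2, 254 with sums per sgRNA and 3250 to 4590 with single libraries left out. For eHDAC6 against GATA1TSS (201) it was 306 without a filter, 390 with DESeq2, 31 without eHDAC6-Guide1, 45 without eHDAC6-Guide2, 914 without GATA1TSS-Guide1, 4 without GATA1TSS-Guide2 and 72 to 205 with single libraries left out. With sums per sgRNA edgeR called 0 there, and 479 genes had an unadjusted p under 0.05. Between the GATA1TSS sgRNAs (457) leaving out single libraries gave 181 to 377, and between the eHDAC6 sgRNAs (2) it gave 0 to 1 in edgeR, with 359 to 465 genes at an unadjusted p under 0.05. Among the control sgRNAs (1618) DESeq2 called 2597 and leaving out single libraries gave 269 (without NC-Guide2 replicate 1) to 3264 (without NC-Guide3 replicate 1).

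Replicate numbers are shared between sgRNAs, and on average libraries with the same number deviated together little. The correlation of their deviations was -0.20 to 0.43 with a median of 0.02 over 84 pairs. Over 168 pairs with different numbers it was -0.31 to 0.25 with a median of -0.01. These medians do not describe every pair. On principal component 1, replicates 2 and 3 of both NC-Guide3 and NC-Guide4 stood apart, while their replicates 1 scored 8.89 and 13.1. A replicate block gave 3628, 4080, 222, 507, 2 and 1729 calls in the 6 comparisons in the order above, and with it MT1G was no longer called among control sgRNAs (edgeR adjusted p = 0.0589 against 0.0499). MT1G, MT1E and MT1F rest on at most 36, 10 and 9 counts per library, which limits what can be detected for them.

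For single sgRNAs against NC, GATA1TSS-Guide1 (1579 genes) gave 47 calls against the 4 control libraries, 3308 against the 8 and 533 to 2167 with single libraries left out. eHDAC6-Guide1 (2192) gave 50, 3780 and 881 to 2813 in the same settings, and eHDAC6-Guide2 (2521) gave 214, 3952 and 988 to 3140. GATA1TSS-Guide2 (3259) stayed at 2192 to 3512 with single libraries left out.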
